A study of Mus musculus with 8 samples.

Results

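The 36 stromal, stellate cell and matrix genes examined here encode fibrillar and microfibril collagens, elastic fibre proteins and other glycoproteins, small proteoglycans, enzymes of matrix turnover, contractile and intermediate filament proteins, and surface proteins of pericytes and fibroblasts. They were chosen by gene symbol, and the brightest probe of each was taken. Each of the 36 genes had a probe, and 35 could be compared between genotypes, among 16959 genes compared of 21154 genes with a probe. Islet RNA of 4 β-CB1R+/+ and 3 β-CB1R-/- mice, all male C57BL/6 animals fed a standard diet, had been measured on 1-colour Agilent arrays. Islets had been released from the pancreas with collagenase P and picked by hand. By the study's methods, β-CB1R-/- mice were *Cnr1* flox/flox:MIP-Cre/ERT+ and β-CB1R+/+ mice were their *Cnr1* flox/flox:MIP-Cre/ERT- littermates, and tamoxifen was given in that breeding scheme. Both groups thus carried the floxed allele of *Cnr1*, the gene of the cannabinoid 1 receptor, while the transgene, in which the mouse insulin promoter drives an inducible Cre in beta cells, was present only in β-CB1R-/- mice. The age of the mice on the arrays was not given in the sources used here. The sample labels name only a CB1 knockout or wild type and describe a global knockout, whereas the series title and design name the beta cell-specific one; the second is used here.

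Islets are mostly endocrine cells, supplied by a dense capillary bed. Pericytes wrap the capillaries, and fibroblasts and stellate cells lie around the vessels and in the tissue that surrounds the islet, where they make collagens, fibronectin and proteoglycans. Stellate cells are known for storing retinoids at rest and for turning into matrix-producing, contractile cells during pancreatic injury, when they make type I and type III collagen and smooth muscle actin. Isolated islets can carry some of this non-endocrine tissue, and in bulk RNA fewer cells of a type and less RNA per cell cannot be told apart.

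Values below are log2 intensities from which the array's own 75th percentile was taken, so that a difference of 1 is a doubling. The second β-CB1R-/- mouse was measured on repeat arrays, whose mean was used. Each of the 8 arrays had 33304 to 39988 probes well above background, of 55681, and the number of arrays limits the precision. All arrays lay on 1 slide, with the genotypes on opposite sides, so that genotype and place on the slide cannot be told apart. The labels number the mice as separate replicates, and the p-values measure the spread between these mice. The probe for *Cnr1* read −1.11, −0.77, −0.53 and −0.015 in β-CB1R+/+ replicates 1 to 4 and −2.30, −3.13 and −2.28 in β-CB1R-/- replicates 1 to 3, a log2 fold change of −1.97 (standard error 0.33, limma adjusted p = 0.193). The *Cnr1* groups did not overlap, and the exact permutation p was 0.0286 (two-sided), which no arrangement of 4 and 3 mice can go below. Of the markers of resting stellate cells, the retinol-esterifying enzyme gene *Lrat* was too dim to be compared and *Gfap* exceeded background clearly on 5 of the 8 arrays, so the word stellate in the name of the gene group rests on genes that fibroblasts and pericytes also express.

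Promoter sequences are shown for 3 genes whose behaviour differed in the islets: *Col1a2* and *Col3a1*, which varied widely between mice, and *Rgs5*, which did not. Each is the 250 bases before the RefSeq start of the gene on GRCm38.p6, plus strand, 5′ to 3′. Capitals mark motifs searched on both strands: the letters CCAAT of the CCAAT box, then TATAAA as one form of the TATA box, and finally GGGCGG, which is the core of the GC box; an occurrence on the minus strand is capitalised as it reads on the plus strand. *Col1a2* lies at chr6:4505368-4505617, *Col3a1* at chr1:45311288-45311537 and *Rgs5* at chr1:169655251-169655500.
*Col1a2*: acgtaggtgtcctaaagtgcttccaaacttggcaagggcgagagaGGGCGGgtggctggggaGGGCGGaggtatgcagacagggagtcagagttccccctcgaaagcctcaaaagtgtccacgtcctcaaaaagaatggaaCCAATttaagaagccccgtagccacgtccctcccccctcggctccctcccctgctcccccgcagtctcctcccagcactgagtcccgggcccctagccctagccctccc
*Col3a1*: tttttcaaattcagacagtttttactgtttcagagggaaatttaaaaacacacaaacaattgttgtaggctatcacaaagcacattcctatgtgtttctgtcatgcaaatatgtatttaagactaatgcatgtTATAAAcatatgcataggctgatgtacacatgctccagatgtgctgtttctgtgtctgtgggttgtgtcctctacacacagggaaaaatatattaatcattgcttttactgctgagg
*Rgs5*: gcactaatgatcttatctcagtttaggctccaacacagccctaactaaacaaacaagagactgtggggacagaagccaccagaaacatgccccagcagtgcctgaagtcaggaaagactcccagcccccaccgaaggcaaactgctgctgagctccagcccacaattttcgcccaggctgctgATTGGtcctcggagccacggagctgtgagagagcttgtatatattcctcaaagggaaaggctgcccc
The *Col1a2* window held CCAAT from 109 to 105 bases before the start and GGGCGG from 205 to 200 and from 188 to 183. In the *Col3a1* window TATAAA stood 117 to 112 bases before the start. The *Rgs5* window held CCAAT on the minus strand, 67 to 63 bases before the start. Windows were available for 23 of the 36 genes: CCAAT was found for 5 of them against 33.8% of 32851 windows of all genes, TATAAA for 4 against 12.4%, and GGGCGG for 11 against 32.7%. None of the 3 motifs was found in both collagen windows, and a match is a description of the sequence only.

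The main feature of the stromal and matrix genes was a wide spread between mice of one genotype. β-CB1R+/+ replicate 4 had the highest value of the 7 mice for 26 of the 35 genes, where 6.89% of all genes had theirs in that mouse. For 24 of these 26 genes the second highest value was in a β-CB1R-/- mouse, most often β-CB1R-/- replicate 2 (15 genes). β-CB1R+/+ replicate 2 had the lowest value for 17 of the 35 genes, against 15.9% of all genes. Which mouse was lowest has no meaning for *Col5a1*, *Col6a2*, *Fbn1*, *Fbln1*, *Lum*, *Mmp2* and *Timp1* among these, since β-CB1R+/+ replicate 2 and at least 1 further control mouse were not well above background, nor for *Postn*, where replicate 1 was not. A β-CB1R-/- mouse was highest for 8 of the 35 genes and lowest for 9. With each gene centred on its mean, the median over the 35 genes was −0.52, −0.84, −0.32 and 1.26 in β-CB1R+/+ replicates 1 to 4 and 0.22, 0.26 and 0.023 in β-CB1R-/- replicates 1 to 3. The same median over all genes was −0.041 in β-CB1R+/+ replicate 4 and 0.070 in β-CB1R+/+ replicate 2.

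**Figure D1:**
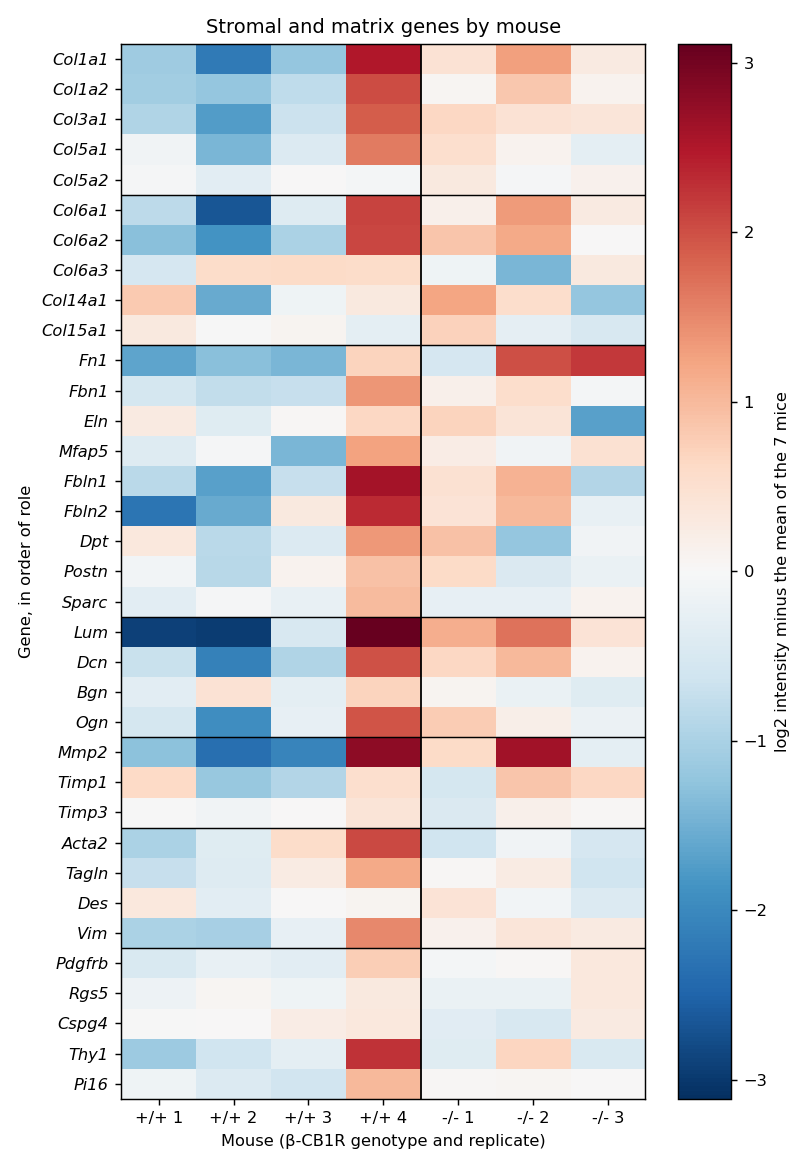
Log2 intensity of each of the 35 compared genes (rows, by role) in each of the 7 mice (columns), minus the gene's mean over the mice; red is higher and blue lower, and the vertical line separates the genotypes. The column of β-CB1R+/+ replicate 4 is the reddest for 26 of the 35 genes, that of β-CB1R+/+ replicate 2 is the bluest for 17, some of them with several mice near background, and the β-CB1R-/- columns are mostly paler.

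The fibrillar collagens are the main load-bearing fibres of connective tissue. *Col1a1*, the major chain of type I collagen, was −1.19, −2.26, −1.26 and 2.43 in β-CB1R+/+ replicates 1 to 4 and 0.38, 1.19 and 0.21 in β-CB1R-/- replicates 1 to 3. The highest and the lowest of these values, 25.8-fold apart, were both from β-CB1R+/+ mice. *Col1a2*, the partner chain, was 0.91, 0.77, 1.20 and 4.02 in β-CB1R+/+ replicates 1 to 4 and 2.06, 2.83 and 2.09 in β-CB1R-/- replicates 1 to 3. *Col3a1*, the chain of type III collagen found in vessel walls and soft tissue, was −0.14, −0.94, 0.13 and 2.68 in β-CB1R+/+ replicates 1 to 4 and 1.44, 1.25 and 1.18 in β-CB1R-/- replicates 1 to 3. For all 3 genes each β-CB1R-/- mouse was above β-CB1R+/+ replicates 1 to 3 and below replicate 4, so the groups overlapped. β-CB1R+/+ replicate 4 was 16.0-fold, 8.32-fold and 7.95-fold above the mean of the other 3 β-CB1R+/+ mice for *Col1a1*, *Col1a2* and *Col3a1*. *Col5a1*, a chain of the type V collagen that nucleates type I fibrils, reached −1.08 in β-CB1R+/+ replicate 4 and was not well above background in replicates 1 and 2. *Col5a2*, another chain of type V collagen, was −2.69, −2.98, −2.65 and −2.71 in β-CB1R+/+ replicates 1 to 4 and −2.36, −2.68 and −2.53 in β-CB1R-/- replicates 1 to 3. Its 7 mice lay within 1.53-fold of each other, and β-CB1R+/+ replicate 4 did not stand out.

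Type VI collagen forms beaded microfibrils from 3 different chains. *Col6a1* was −0.90, −2.74, −0.49 and 2.03 in β-CB1R+/+ replicates 1 to 4 and 0.071, 1.25 and 0.19 in β-CB1R-/- replicates 1 to 3. These readings span 27.3-fold, but the lowest, of β-CB1R+/+ replicate 2, was not well above background. *Col6a2* was −4.22, −4.77, −3.89 and −0.83 in β-CB1R+/+ replicates 1 to 4 and −2.05, −1.75 and −2.90 in β-CB1R-/- replicates 1 to 3. Of the β-CB1R+/+ mice, only replicate 4 was well above background for *Col6a2*, while all 3 β-CB1R-/- mice were. *Col6a3* was 0.031, 1.11, 1.15 and 1.13 in β-CB1R+/+ replicates 1 to 4 and 0.43, −0.86 and 0.87 in β-CB1R-/- replicates 1 to 3. The third chain did not follow the other two: β-CB1R-/- replicate 2, the second highest mouse for *Col6a1* and *Col6a2*, was the lowest for *Col6a3*, and β-CB1R+/+ replicates 2 to 4 were nearly level.

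*Col14a1*, a fibril-associated collagen of dense connective tissue, gave different patterns from its 2 compared probes. The brighter probe was 1.03, −1.35, 0.093 and 0.54 in β-CB1R+/+ replicates 1 to 4 and 1.45, 0.78 and −0.97 in β-CB1R-/- replicates 1 to 3. The dimmer probe was −2.56, −1.96, −2.15 and 0.54 in β-CB1R+/+ replicates 1 to 4 and −1.27, −1.30 and −1.32 in β-CB1R-/- replicates 1 to 3. The dimmer probe had β-CB1R+/+ replicate 4 highest and the β-CB1R-/- mice next, whereas β-CB1R-/- replicate 1 was highest and β-CB1R+/+ replicate 2 lowest with the brighter probe. *Col15a1*, a collagen that links basement membrane to the underlying matrix, ranged from −3.05 to −1.83, and both extremes were β-CB1R-/- mice.

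Among the glycoproteins, fibronectin differed from the rest. *Fn1*, which encodes the adhesive protein that binds integrins and collagen, was −1.75, −1.41, −1.55 and 0.57 in β-CB1R+/+ replicates 1 to 4 and −0.64, 1.89 and 2.09 in β-CB1R-/- replicates 1 to 3. β-CB1R-/- replicates 2 and 3 were the highest mice, then came β-CB1R+/+ replicate 4, and β-CB1R-/- replicate 1 lay between the control mice, so the groups overlapped. *Fbln2*, the gene of a glycoprotein of elastic fibres and basement membranes, was −2.24, −1.54, 0.32 and 2.34 in β-CB1R+/+ replicates 1 to 4 and 0.46, 1.04 and −0.20 in β-CB1R-/- replicates 1 to 3, a 23.9-fold range within the β-CB1R+/+ group. *Fbln1*, of the same family, was −3.51, −4.37, −3.39 and −0.088 in β-CB1R+/+ replicates 1 to 4 and −2.21, −1.61 and −3.59 in β-CB1R-/- replicates 1 to 3. Every β-CB1R-/- value of both fibulin genes lay inside the range of the control mice, and β-CB1R+/+ replicates 1 and 2 were not well above background for *Fbln1*.

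*Fbn1*, which encodes the microfibril scaffold fibrillin, was −3.56, −3.79, −3.73 and −1.64 in β-CB1R+/+ replicates 1 to 4 and −2.85, −2.47 and −3.09 in β-CB1R-/- replicates 1 to 3, and of the β-CB1R+/+ mice only replicate 4 was well above background. *Mfap5*, of the microfibril-associated glycoproteins, was highest in β-CB1R+/+ replicate 4, at −1.63, and not well above background in replicates 1 and 3. With these set to the dimmest level well above background on their arrays, its range was 6.22-fold. The repeat arrays differed by 0.67 for *Mfap5*, the largest such difference of the group. *Eln*, which encodes elastin itself, was −1.65, −2.29, −1.88 and −1.28 in β-CB1R+/+ replicates 1 to 4 and −1.22, −1.53 and −3.61 in β-CB1R-/- replicates 1 to 3. For *Eln* a β-CB1R-/- mouse, replicate 3, was far the lowest. *Dpt*, encoding the collagen-binding protein dermatopontin, was highest in β-CB1R+/+ replicate 4, at −1.46, and not well above background in β-CB1R-/- replicate 2. Its range was 4.66-fold with that mouse set in the same way. *Postn*, the gene of the matricellular protein periostin, was highest in β-CB1R+/+ replicate 4, at −1.69, and read −3.45 in replicate 2, while replicate 1 was not well above background. *Sparc*, which encodes a collagen-binding matricellular protein, was 5.02, 5.31, 5.13 and 6.34 in β-CB1R+/+ replicates 1 to 4 and 5.09, 5.10 and 5.45 in β-CB1R-/- replicates 1 to 3. Apart from β-CB1R+/+ replicate 4 the mice lay close together, and the 3 probes of *Sparc* gave log2 fold changes of −0.24, 0.21 and −0.14.

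The small leucine-rich proteoglycans regulate the width and spacing of collagen fibrils. *Lum*, encoding lumican, had the widest measured range of the 35 genes and was −4.46, −4.52, −2.08 and 1.54 in β-CB1R+/+ replicates 1 to 4 and −0.44, 0.11 and −1.14 in β-CB1R-/- replicates 1 to 3. β-CB1R+/+ replicates 1 and 2 were not well above background. With these set to the dimmest level well above background on their arrays, the range was 44.0-fold. *Dcn*, which encodes decorin and is a standard marker of fibroblasts, was 2.15, 0.75, 1.92 and 4.83 in β-CB1R+/+ replicates 1 to 4 and 3.51, 3.85 and 2.95 in β-CB1R-/- replicates 1 to 3, a 16.9-fold range. *Ogn*, encoding osteoglycin, was −2.28, −3.65, −1.98 and 0.22 in β-CB1R+/+ replicates 1 to 4 and −0.94, −1.54 and −1.90 in β-CB1R-/- replicates 1 to 3, a 14.6-fold range. In all 3 genes β-CB1R+/+ replicate 4 was highest, and β-CB1R+/+ replicate 2 was lowest for *Dcn* and *Ogn*. *Bgn*, encoding biglycan, kept replicate 4 as its highest mouse at 0.31, but β-CB1R+/+ replicate 2 was second at 0.086, and the 7 mice spanned only 2.08-fold.

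Of the genes for crosslinking and turnover, *Lox*, the collagen-crosslinking lysyl oxidase, was not well above background on any array and was not compared. *Mmp2*, the gelatinase made by fibroblasts, was −4.92, −5.99, −5.70 and −0.86 in β-CB1R+/+ replicates 1 to 4 and −3.06, −1.02 and −3.95 in β-CB1R-/- replicates 1 to 3. It was well above background in 3 mice, β-CB1R+/+ replicate 4 and β-CB1R-/- replicates 1 and 2. With the other mice set to the dimmest level well above background on their arrays, its range was 10.6-fold. The inhibitor gene *Timp1* was likewise well above background in 3 mice, from −2.67 to −2.32 in them. *Timp3*, encoding an inhibitor that binds to the matrix, was 2.16, 2.07, 2.20 and 2.58 in β-CB1R+/+ replicates 1 to 4 and 1.74, 2.34 and 2.22 in β-CB1R-/- replicates 1 to 3. All 7 mice lay within 1.79-fold of each other for *Timp3*, and β-CB1R-/- replicate 1 was lowest.

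The contractile genes mark smooth muscle, pericytes and activated stellate cells. *Acta2*, smooth muscle actin, was −0.73, −0.12, 0.82 and 2.31 in β-CB1R+/+ replicates 1 to 4 and −0.36, 0.15 and −0.26 in β-CB1R-/- replicates 1 to 3. β-CB1R+/+ replicates 3 and 4 were the highest mice, and the 3 β-CB1R-/- mice fell inside the control range. *Tagln*, encoding the actin-binding protein transgelin, was 1.17, 1.50, 2.14 and 3.08 in β-CB1R+/+ replicates 1 to 4 and 1.94, 2.15 and 1.26 in β-CB1R-/- replicates 1 to 3, with the same mouse highest. *Vim*, the intermediate filament of mesenchymal cells, was −0.025, −0.074, 0.69 and 2.46 in β-CB1R+/+ replicates 1 to 4 and 1.09, 1.34 and 1.23 in β-CB1R-/- replicates 1 to 3. For *Vim* the β-CB1R-/- mice lay together, above β-CB1R+/+ replicates 1 to 3 and below replicate 4. *Des*, the muscle-type intermediate filament that islet pericytes and stellate cells express, was −1.65, −2.30, −1.97 and −1.88 in β-CB1R+/+ replicates 1 to 4 and −1.56, −2.07 and −2.40 in β-CB1R-/- replicates 1 to 3, which is a 1.80-fold range.

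The pericyte markers *Rgs5* and *Cspg4* were among the steadier genes. *Rgs5*, a regulator of G protein signalling and a pericyte marker, was 0.94, 1.17, 0.97 and 1.41 in β-CB1R+/+ replicates 1 to 4 and 0.90, 0.88 and 1.44 in β-CB1R-/- replicates 1 to 3. *Cspg4*, which encodes the NG2 proteoglycan of pericytes, was −1.28, −1.26, −1.04 and −0.94 in β-CB1R+/+ replicates 1 to 4 and −1.61, −1.77 and −0.98 in β-CB1R-/- replicates 1 to 3. The mice lay within 1.47-fold for *Rgs5* and 1.77-fold for *Cspg4*, and their groups overlapped. *Pdgfrb*, the receptor through which pericytes are recruited to vessels, was −1.03, −0.77, −0.87 and 0.21 in β-CB1R+/+ replicates 1 to 4 and −0.62, −0.53 and −0.23 in β-CB1R-/- replicates 1 to 3, and here β-CB1R+/+ replicate 4 again stood above the others. *Thy1*, a surface protein of fibroblasts, was −0.92, −0.41, −0.10 and 2.45 in β-CB1R+/+ replicates 1 to 4 and −0.15, 0.87 and −0.26 in β-CB1R-/- replicates 1 to 3, a 10.4-fold range. *Pi16*, a marker of adventitial fibroblasts, was −0.98, −1.28, −1.45 and 0.17 in β-CB1R+/+ replicates 1 to 4 and −0.81, −0.78 and −0.83 in β-CB1R-/- replicates 1 to 3. β-CB1R+/+ replicate 4 was highest for both, and it stood at 7.63-fold the mean of the other 3 control mice for *Thy1*, 2.64-fold for *Pi16*, 2.14-fold for *Pdgfrb*, 1.30-fold for *Rgs5* and 1.19-fold for *Cspg4*.

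**Figure D2:**
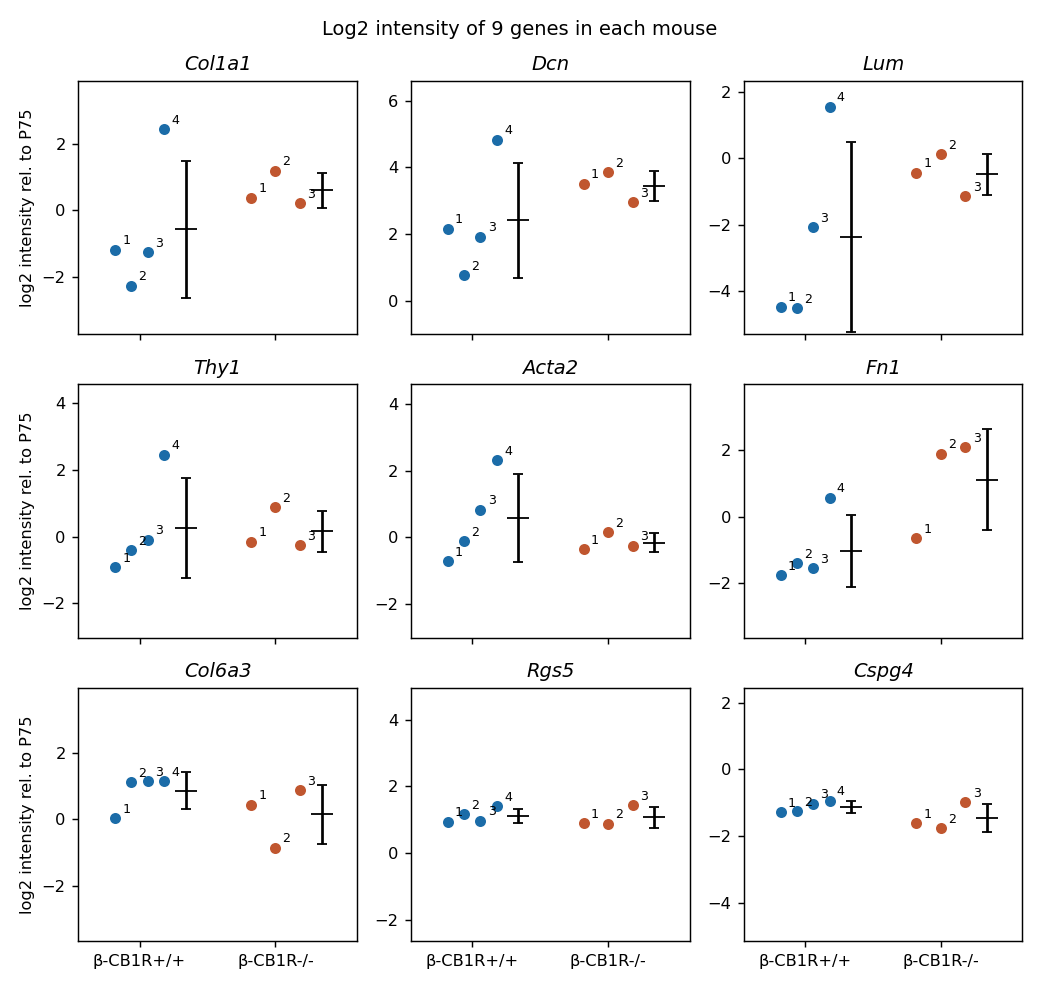
Log2 intensity relative to the 75th percentile (P75) of 9 genes in each mouse (points, numbered by replicate), with the mean and SD of each genotype (bars); each panel spans the same number of log2 units. β-CB1R+/+ replicate 4 is far above the other control mice for *Col1a1*, *Dcn*, *Lum* and *Thy1*, *Fn1* is highest in β-CB1R-/- replicates 2 and 3, and *Rgs5* and *Cspg4* are nearly level.

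The spread was set beside that of all genes and beside the measuring error. The SD between mice within genotype had a median of 0.92 over the 35 genes, compared with 0.33 over all genes compared; without β-CB1R+/+ replicate 4 it was 0.53, against 0.33, and with the normexp background 0.58, against 0.26. It was above the all-gene median for 31 of the 35 genes and in the top 5% of all genes for 17, among them *Lum*, *Mmp2*, *Col6a2*, *Fbln1* and *Col5a1*, for which 2 or 3 control mice were not well above background. The range over the 7 mice had a median of 2.55, against 0.94 for all genes. *Col5a2*, *Rgs5*, *Timp3* and *Cspg4* were the 4 genes below the all-gene median, with SDs of 0.15, 0.26, 0.27 and 0.29. The repeat arrays of β-CB1R-/- replicate 2 differed by a median of 0.091 over the 35 genes, against 0.099 over all genes, and by less than the SD between mice for 32 of the 35 genes. The exceptions were *Col5a2*, *Des* and *Cspg4*, with repeat differences of 0.40, 0.37 and 0.35. For *Col1a1* the repeat arrays read 1.23 and 1.16, against the SD between mice of 1.63, and for *Lum* 0.010 and 0.21, against 2.24. One control mouse lay far from the other 3, by the gap to its neighbour relative to the range, for 4 of the 35 genes, against 7.5% of all genes.

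The 2 genotypes did not spread alike. The SD of the 4 β-CB1R+/+ mice was larger than that of the 3 β-CB1R-/- mice for 24 of the 35 genes, against 40.4% of all genes, with medians of 1.03 and 0.46. Without β-CB1R+/+ replicate 4 the difference was smaller: the median SD of the other 3 control mice was 0.50, and the SD exceeded that of the β-CB1R-/- mice for 16 genes. Over all genes the median SD was 0.27 in these 3 control mice and 0.33 in the β-CB1R-/- mice. Much of the difference in spread between genotypes thus came with 1 mouse. That mouse was picked for its high values, and no β-CB1R-/- mouse was left out to match.

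**Figure D3:**
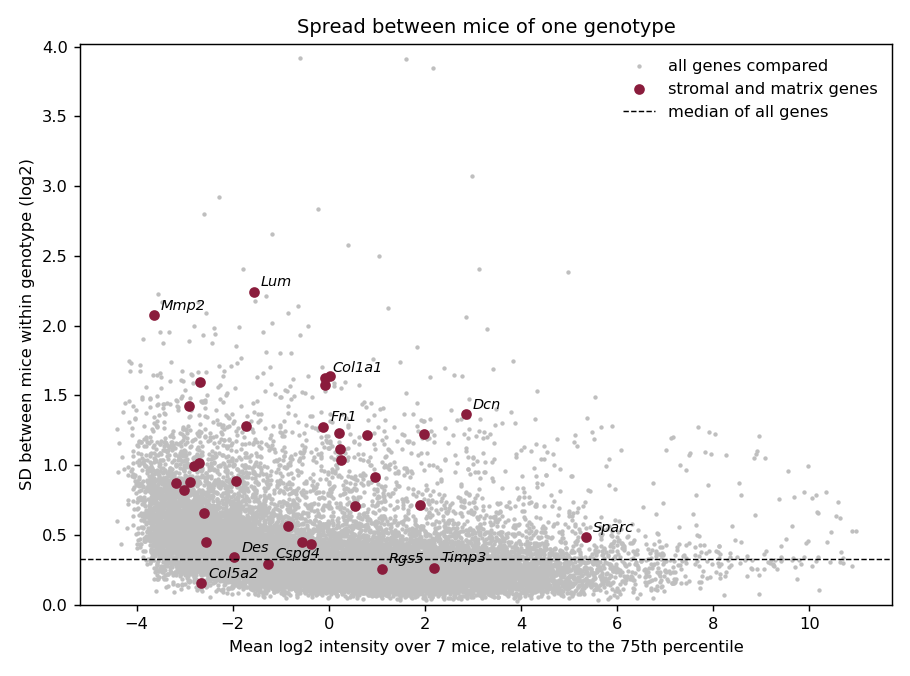
SD between mice within genotype (vertical axis, log2) against the mean log2 intensity over the 7 mice (horizontal axis) for all genes compared (grey) and the 35 stromal and matrix genes (red); the dashed line is the median of all genes. Of the red points 31 lie above the line; *Col5a2*, *Rgs5*, *Timp3* and *Cspg4* lie below it.

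The comparison between genotypes asked whether any of these genes differed in islets of β-CB1R-/- mice. With limma, 0 of the 35 genes passed an adjusted p of 0.05, where 0.171% of all genes did, and the smallest adjusted p was 0.999. At an unadjusted p under 0.05 there was 1 gene, *Fn1*, against 3.9% of all genes; it was higher in β-CB1R-/- islets, as 1.88% of all genes were at that p. The log2 fold change of *Fn1* was 2.15 (standard error 0.79, 95% interval 0.33 to 3.97, limma adjusted p = 0.999), and its exact permutation p was 0.0857. *Fn1* did not reach an unadjusted p under 0.05 without β-CB1R+/+ replicate 1, 2 or 3 or β-CB1R-/- replicate 2 or 3 (0.0564 to 0.105 with limma), nor with the methods' *t* test (0.0788). No gene had groups that did not overlap, against 2.61% of all genes with every β-CB1R-/- mouse above every β-CB1R+/+ mouse and 2.21% with every one below. The knockout mean was the higher for 21 genes and the lower for 14, while 44.3% of all genes were higher. The median log2 fold change was 0.23, against −0.04 for all genes. With a normexp background correction 17 were higher and 18 lower, and the median was −0.0077. Among the 24 genes well above background on all 8 arrays, 12 were higher and 12 lower, with a median of 0.024.

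The intervals show what the design could resolve. The 95% intervals of the log2 fold change were between 0.87 and 6.31 wide, and for 27 of the 35 genes they reached beyond 1 in one or both directions, so that a difference of 1 or more on the log2 scale lay within the interval. The log2 fold change of *Col1a1* was 1.17 (standard error 1.00), with an interval of −1.14 to 3.47. That of *Lum* was 1.89 (standard error 1.37), with an interval of −1.27 to 5.05, but 2 of the 4 control mice were not well above background for it. With the normexp background the values were 0.75 for *Col1a1* and 0.56 for *Lum*. For *Mmp2* and *Col6a2* 1 of the 4 control mice was well above background, so their differences have no measured size. Those of *Dcn* and *Col3a1* were 1.02 and 0.86, with intervals of −0.92 to 2.97 and −0.88 to 2.59. *Acta2* and *Col6a3* had the lowest values, −0.73 and −0.71, with intervals of −2.23 to 0.77 and −1.77 to 0.35. The steady genes gave narrower bounds: the interval was −0.57 to 0.48 for *Rgs5*, −0.68 to 0.38 for *Timp3*, −0.88 to 0.23 for *Cspg4*, −0.66 to 0.55 for *Des* and −0.20 to 0.67 for *Col5a2*. For these 5 genes a difference of 1 on the log2 scale lay outside the interval.

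The size of the genotype difference depended on single mice. Without β-CB1R+/+ replicate 4 the median log2 fold change of the 35 genes was 0.63 in place of 0.23, with 27 genes higher and 8 lower. An unadjusted p under 0.05 was then reached by 14 genes, all higher in β-CB1R-/- islets, against 4.28% of all genes in either direction and 2.35% in that direction, and 0 passed an adjusted p of 0.05 (smallest adjusted p = 0.438 with limma; 0.0767% of all genes passed). The log2 fold change was then 2.17 for *Col1a1*, 1.83 for *Dcn*, 1.61 for *Col3a1* and 1.36 for *Col1a2*, and it was 2.68 for *Fn1*, all well above background in each mouse. For *Mmp2*, *Col6a2* and *Fbn1* no remaining control mouse was well above background, and for *Lum* 1 of 3 was, so no size is given for them in that setting. For 14 of the 35 genes, against 4.52% of all genes, every β-CB1R-/- mouse was above β-CB1R+/+ replicates 1 to 3, and for 13 of these 14 every one was also below replicate 4; *Fn1* was the exception. The 14 include *Col6a2*, *Fbn1* and *Mmp2*, which passed the filter on dim probes through β-CB1R-/- mice and replicate 4 alone. These genes were also tested in the fit without replicate 4. Neither this count nor the count at an unadjusted p under 0.05 is therefore read as support for a difference. Without β-CB1R+/+ replicate 2 the median was −0.041, with 16 genes higher and 19 lower, and leaving out replicate 1 gave 0.14 and replicate 3 gave 0.077. The median was 0.15 when β-CB1R-/- replicate 1 was left out, 0.20 when replicate 2 was, and 0.39 when replicate 3 was, the last with 27 genes higher and 8 lower. No difference between the genotypes in these genes held against the spread between the control mice.

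**Figure D4:**
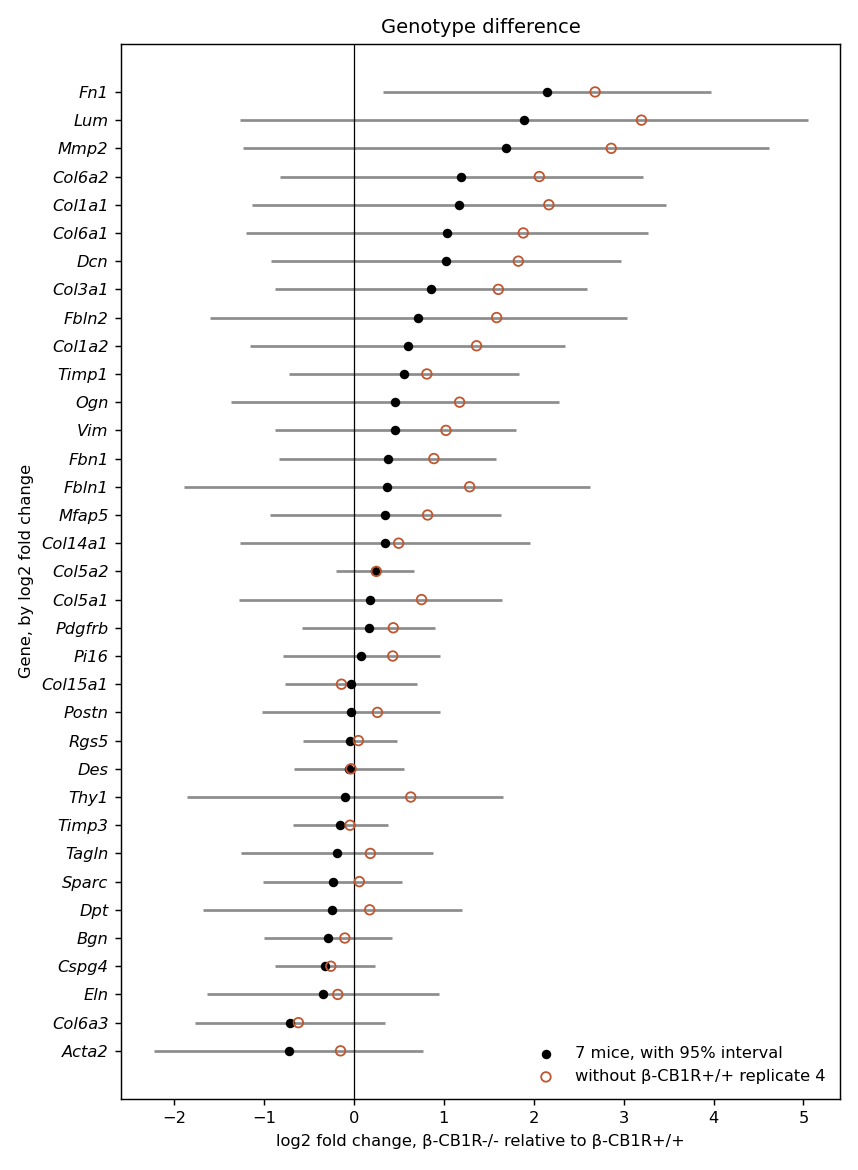
Log2 fold change (horizontal axis; above 0 is higher in β-CB1R-/- islets) of each of the 35 genes with its 95% interval (black points, 7 mice) and without β-CB1R+/+ replicate 4 (open circles). The interval of *Fn1* alone does not reach 0, its adjusted p was 0.999, and most circles lie to the right of their points; for *Mmp2*, *Col6a2* and *Fbn1* no control mouse behind the circle was well above background.

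Genes of neighbouring pathways were counted in 7 further lists, and 0 genes of any list passed an adjusted p of 0.05. Basement membrane genes, which encode the sheet around islet capillaries, were highest in β-CB1R+/+ replicate 4 for 11 of 14, with a median log2 fold change of −0.061. Their highest and lowest log2 fold changes were 0.28 for the type IV collagen gene *Col4a2* and −0.31 for the heparan sulphate proteoglycan gene *Agrn*. Further fibroblast, pericyte and stellate genes were highest in that mouse for 15 of 22, with 11 higher and 11 lower in β-CB1R-/- islets. Their extremes were 1.14 (standard error 0.64) for the complement gene *C3* and −0.97 (standard error 0.46) for *S100a4*. The transforming growth factor β list, whose ligands drive matrix production, was highest in β-CB1R+/+ replicate 4 for 9 of 18, with 14 genes higher and 4 lower, between 0.61 for the matrix target *Tgfbi* and −0.19 for the receptor *Tgfbr1*.

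Platelet-derived growth factor signals recruit pericytes and fibroblasts, and 4 of the 5 genes of that list were highest in β-CB1R+/+ replicate 4. *Pdgfra*, the receptor of fibroblasts, was −4.19, −5.26, −4.54 and −1.24 in β-CB1R+/+ replicates 1 to 4 and −2.85, −2.01 and −3.52 in β-CB1R-/- replicates 1 to 3. Among the control mice only replicate 4 was well above background for *Pdgfra*, while all β-CB1R-/- mice were. Its difference therefore has no measured size; the lowest log2 fold change of the list was −0.15 for the ligand *Pdgfc*. The collagen-processing genes were highest in β-CB1R+/+ replicate 4 for 4 of 15, the proteases and inhibitors for 4 of 11, and the matrix receptors for 2 of 15. *Loxl2*, a lysyl oxidase relative, was 1.61, 1.93, 1.66 and 1.51 in β-CB1R+/+ replicates 1 to 4 and 0.41, −0.69 and 1.23 in β-CB1R-/- replicates 1 to 3. All 3 β-CB1R-/- mice were below the 4 control mice for *Loxl2*, whose log2 fold change was −1.36 (standard error 0.41) with a limma adjusted p of 0.999, and *P3h1*, a collagen prolyl hydroxylase, had the highest value of that list at 0.38. *Cd44*, the hyaluronan receptor, was 0.56, 1.44, 0.99 and 1.07 in β-CB1R+/+ replicates 1 to 4 and −0.33, −0.59 and 0.20 in β-CB1R-/- replicates 1 to 3. Its groups did not overlap either, with a difference of −1.26 (standard error 0.28) on the log2 scale and a limma adjusted p of 0.62. The groups also did not overlap for *P4ha2* of the collagen-processing list (−0.76) and for the receptor genes *Itga3* and *Sdc4* (0.29 and 0.18), all named after their values were seen. These were 2 of 15 and 3 of 15 genes, where 2.21% of all genes lay below and 2.61% above without overlap. The highest value among the receptors was 0.43 for the proteoglycan *Sdc1*, and the proteases lay between 0.71 for *Mmp15* and −0.28 for *Adamts1*.

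Markers of other cells in the preparation were measured beside the matrix genes. Endothelial markers were highest in β-CB1R+/+ replicate 4 for 11 of 14, and their mean level ranged from 0.56 to 1.41 in β-CB1R+/+ mice and from 0.70 to 0.85 in β-CB1R-/- mice. The endothelial junction genes *Pecam1* and *Cdh5* had log2 fold changes of 0.21 and −0.087. Acinar markers were highest in β-CB1R+/+ replicate 4 for 0 of 20 and lowest in β-CB1R+/+ replicate 2 for 14 of 20, with mean levels of 8.60 to 9.86 in β-CB1R+/+ mice and 8.84 to 10.08 in β-CB1R-/- mice. In β-CB1R-/- islets 19 of the 20 had the higher mean (median log2 difference 0.18); the carboxypeptidase gene *Cpa1*, at −0.067, was the 1 that was lower. With the acinar mean as a covariate 0 of the 35 genes passed, their median log2 fold change was 0.061 in place of 0.23, and the median SD was 0.94, against 0.92 without it.

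Macrophage markers were highest in β-CB1R-/- replicate 3 for 7 of 14 and in β-CB1R+/+ replicate 4 for 2, with mean levels of −0.16 to 0.67 in β-CB1R+/+ and 0.28 to 0.86 in β-CB1R-/- mice; *Adgre1* and *Cd68* gave 0.04 and 0.60. In β-CB1R-/- islets 12 of the 14 had the higher mean (median log2 difference 0.37). Duct markers had mean levels of 0.44 to 1.41 and 0.68 to 1.54 (*Krt19* 0.60, *Krt7* −0.16; 7 of 11 higher). Schwann cell and nerve markers had −1.53 to −0.49 and −0.55 to −0.35 (*Sox10* was well above background in 2 of the 4 control mice). *Ngfr*, the neurotrophin receptor gene in that list, named after its values were seen, was −4.03, −3.84, −4.34 and −1.67 in β-CB1R+/+ replicates 1 to 4 and −0.61, 0.23 and 0.32 in β-CB1R-/- replicates 1 to 3. Its groups did not overlap, 1 of the 4 control arrays was well above background, and the limma adjusted p was 0.274. Among these cell markers the groups also did not overlap for *C1qb*, which was higher, and *Msln* and *Ttr*, which were lower, none past the threshold; 2.61% of all genes lay above and 2.21% below without overlap. Mesothelial and fat cell markers had mean levels of −1.74 to −0.64 and −1.09 to −0.56 (*Msln* −0.85, *Upk3b* well above background in 2 of the 4 control mice). Beta cell markers were highest in β-CB1R+/+ replicate 4 for 0 of 10, with mean levels of 6.33 to 6.78 and 6.06 to 6.53; 9 of the 10 were lower in β-CB1R-/- islets, with a median log2 fold change of −0.17, and the insulin genes *Ins1* and *Ins2* gave −0.11 and 0.074. The markers of alpha, delta and PP cells had mean levels of 4.56 to 4.69 and 4.08 to 4.57, with 6 of the 8 lower, a median log2 fold change of −0.45 and −0.36 for the glucagon gene *Gcg*. In none of these 6 lists did a gene pass an adjusted p of 0.05.

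Immediate-early genes, which respond to tissue handling among other stimuli, split the mice in another way. Their centred median was −1.45, −1.83, 2.33 and 1.14 in β-CB1R+/+ replicates 1 to 4 and −0.85, 1.90 and −1.41 in β-CB1R-/- replicates 1 to 3. *Fos* read −0.82, −1.59, 6.31 and 5.34 in β-CB1R+/+ replicates 1 to 4 and 0.75, 5.84 and −0.71 in β-CB1R-/- replicates 1 to 3, and *Fosb* followed the same split. β-CB1R+/+ replicate 3, the highest mouse for *Fos*, lay within the values of replicates 1 and 2 for *Col1a1*, *Dcn*, *Sparc* and *Rgs5*. It was above both for *Col1a2*, *Col3a1*, *Ogn*, *Fbln2*, *Acta2*, *Tagln*, *Vim* and *Thy1*, and below both for *Pi16*. These genes are examples, and the order was not counted over all the matrix genes. The part of vascular, acinar or immediate-early differences in the spread of the matrix genes was not tested beyond the covariates given.

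**Figure D5:**
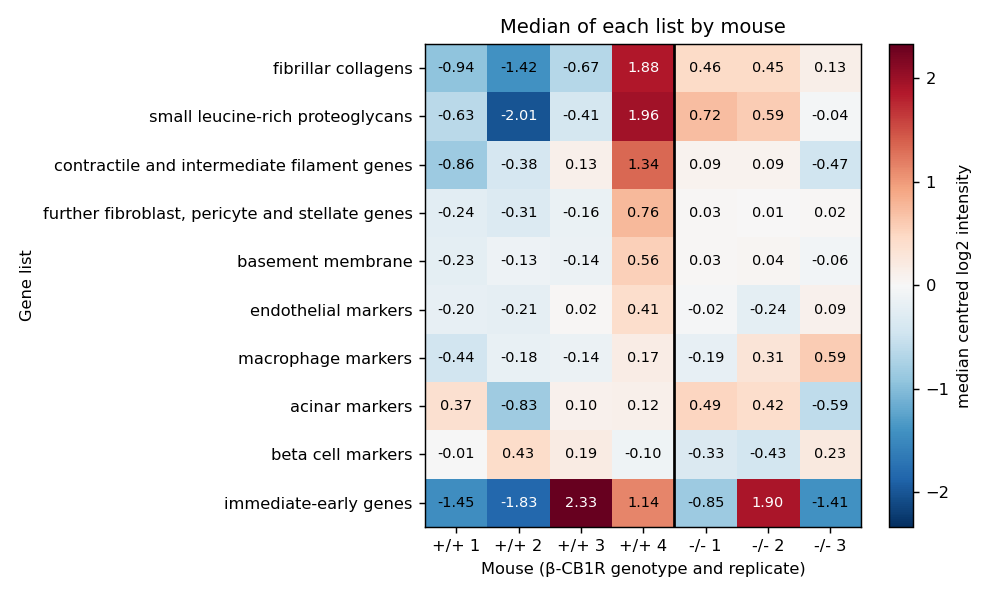
Median over the genes of each list of the log2 intensity minus the gene's mean over the 7 mice (colour and printed value), by mouse. The fibrillar collagens, proteoglycans, contractile genes, fibroblast genes, basement membrane genes and endothelial markers are highest in β-CB1R+/+ replicate 4, the acinar and beta cell markers are not, and the immediate-early genes are high in β-CB1R+/+ replicates 3 and 4 and β-CB1R-/- replicate 2.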

How the data were processed

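Agilent Feature Extraction output was deposited for 8 arrays of 7 mice, with the intensity of every spot after background subtraction by the authors, unscaled across arrays. A second deposited value, a Z score per spot, matched the standardised log10 intensities of each array to within 0.00503. The paper cites an earlier article for its array analysis. Here intensities were put on the log2 scale relative to the 75th percentile of an array's spots other than controls. Irregular spots were dropped, and means were taken over the spots of a probe and then over the repeat arrays. No spot was saturated. Probes well above background in 3 or more of the 7 mice were compared (39165 of 55681). Genotypes were compared with limma 3.58.1 in R 4.3.3 (lmFit and eBayes, two-sided, Benjamini-Hochberg adjustment over all compared probes, threshold 0.05). Single genes also had an exact permutation test, which has 35 splits. In a range with a mouse not well above background, that mouse takes the dimmest level still well above background on its array, or its own if higher. Such a range is not a strict lower bound. Accessions were matched to RefSeq symbols of GRCm38.p6 for 28026 probes, since the scanner files hold no symbol column, and each gene is its brightest compared probe. Promoters come from RefSeq.

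The genes and lists were chosen with earlier results of these data known. Genes were named by a rule: each of the 36 genes, *Cnr1*, the highest and lowest log2 fold change of each neighbouring list, and the first 2 genes of each marker list, a few of which are not reported here; *Lrat*, *Gfap*, *Cd44* and *Loxl2* follow from it or from the check of the cell type, and *Ngfr*, *C1qb*, *Ttr*, *P4ha2*, *Itga3*, *Sdc4* and genes in the last section were picked with their values in view. Alternatives were a normexp background (offset 50, on median spot signals), quantile normalisation, the deposited Z scores, either repeat array alone, the filter dropped or demanded of all 8 arrays, a variance prior that follows intensity, the methods' *t* test on the same values, the replicate number as a block, the mean of all probes of a gene, covariates for acinar and immediate-early genes, and each mouse left out in turn. In a simulation of 39165 probes in 4 and 3 mice, a log2 change of 1 was recovered for 4% of the probes that had it, one of 2 for 58%, one of 3 for 80% and one of 4 for 94%, with 5 false calls among all probes. The changed probes were drawn from all compared probes. The matrix genes spread more (median SD 0.92, against 0.33 over all genes), so these shares do not describe them. Metabolic and protein measurements of the study were not analysed here.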

Additional observations from a re-analysis of the deposited data

Results flagged for a closer look

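In 4 of the 35 genes 1 β-CB1R+/+ mouse stood far from the other 3, by the gap to its nearest neighbour relative to the range of the 4 mice (Dixon's test at the 95% level). Chance alone gives about 1 such group in 20, and 7.5% of all genes met the same criterion. β-CB1R+/+ replicate 4 was the distant mouse for *Col1a2* (log2 intensity 4.02), *Fn1* (0.57) and *Fbn1* (−1.64). β-CB1R+/+ replicate 1 was the distant mouse for *Col6a3* (0.031), and it was below the others. *Fbn1* was not well above background in the other 3 control mice.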

How the results depend on the processing

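The number of stromal and matrix genes past an adjusted p of 0.05 was 0 under every alternative run, with each mouse left out in turn included. The median log2 fold change lay between −0.0077 and 0.63 over the alternatives and between −0.041 and 0.63 with a mouse left out. The median SD between mice was 0.58 with the normexp background and otherwise 0.80 to 0.98 except under the replicate block; with a mouse left out it was 0.53, without β-CB1R+/+ replicate 4, to 1.03. Over all probes 43 passed; 23 did without a filter on dim probes, 24 with the filter on all arrays, 14 with the acinar and 17 with the immediate-early covariate, 0 with the methods' *t* test (1412 at an unadjusted p under 0.05) and 0 to 42 with a mouse left out.

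With the replicate number as a block, 0 probes passed (1714 at an unadjusted p under 0.05), the median SD was 0.51, and 12 of the 35 genes had an unadjusted p under 0.05, all higher in β-CB1R-/- islets, against 4.38% of all genes in either direction. Same-numbered mice correlated at 0.42, −0.27 and −0.062. These values give no ground for treating the numbers as pairs, but so few cannot exclude pairing. The block removes β-CB1R+/+ replicate 4 from the contrast. For *Col6a2*, *Fbn1* and *Mmp2* none of the control mice left in the contrast was well above background. The count of 12 is therefore not read as support for a difference. Under the block *Dpt* (0.17), *Postn* (0.26), *Sparc* (0.059), *Tagln* (0.18), *Rgs5* (0.049) and *Thy1* (0.63) changed sign.

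With the normexp background *Lum*, *Mmp2*, *Col6a2* and *Col1a1* kept their sign at smaller values (0.56, 0.32, 0.24 and 0.75), with most control mice near background for *Mmp2* and *Col6a2*. Signs also changed with the normexp background for *Col5a1* (−0.11), *Fbn1* (−0.026), *Fbln1* (−0.12) and *Pi16* (−0.034), with the deposited Z scores for *Col15a1* (0.015) and *Postn* (0.010), with the first repeat array alone for *Col15a1* (0.021), *Postn* (0.020) and *Des* (0.0045), and with the acinar covariate for *Col5a1* (−0.030), *Col14a1* (−0.028) and *Rgs5* (0.0090). With a mouse left out, 16 genes changed sign in at least 1 setting: *Col14a1* (−0.17 to 1.04), *Col15a1* (−0.40 to 0.21), *Col5a1* (−0.26 to 0.75), *Des* (−0.28 to 0.14), *Dpt* (−0.76 to 0.29), *Eln* (−0.80 to 0.40), *Fbln1* (−0.14 to 1.29), *Mfap5* (−0.077 to 0.82), *Ogn* (−0.11 to 1.17), *Pi16* (−0.11 to 0.43), *Postn* (−0.34 to 0.26), *Rgs5* (−0.23 to 0.049), *Sparc* (−0.38 to 0.059), *Tagln* (−0.46 to 0.18), *Thy1* (−0.49 to 0.63) and *Timp3* (−0.27 to 0.028). The upper values of *Col5a1*, *Fbln1* and *Mfap5* are without β-CB1R+/+ replicate 4, where 1 of the 3 remaining control mice was well above background, and are not measured sizes. None of these values passed the threshold, and the cause was not tested. The alternative on a gene symbol column was not run because the scanner files hold none. Array number, a single slide with the genotypes on opposite sides, and probes near background limit all comparisons.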

Other observations

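Some genes of the fibroblast and collagen-processing lists outside the 36 genes had β-CB1R+/+ replicate 4 highest and every β-CB1R-/- mouse above β-CB1R+/+ replicates 1 to 3. The 4 given here were chosen after their values were seen. Every β-CB1R-/- mouse was above those 3 control mice for 5 of 22 and 1 of 15 genes of the lists, against 4.52% of all genes. The knockout mean was lower for 11 of the 22 and 6 of the 15. *Serpinf1*, the gene of pigment epithelium-derived factor, was −2.46, −2.69, −1.94 and 1.26 in β-CB1R+/+ replicates 1 to 4 and −0.66, 0.13 and −1.48 in β-CB1R-/- replicates 1 to 3. *Igfbp6*, which encodes an insulin-like growth factor binding protein, was −1.10, −1.51, −1.19 and 1.40 in β-CB1R+/+ replicates 1 to 4 and 0.21, 0.72 and −0.13 in β-CB1R-/- replicates 1 to 3. *Pcolce*, an enhancer of procollagen processing, was 0.71, 0.16, 0.77 and 2.98 in β-CB1R+/+ replicates 1 to 4 and 1.52, 1.38 and 1.27 in β-CB1R-/- replicates 1 to 3, and *Cygb*, the globin of stellate cells and fibroblasts, was 0.36, 0.58, 0.78 and 2.66 in β-CB1R+/+ replicates 1 to 4 and 1.18, 1.26 and 1.23 in β-CB1R-/- replicates 1 to 3. Their log2 fold changes were 0.79 (standard error 0.93), 0.86 (standard error 0.67), 0.23 (standard error 0.61) and 0.12 (standard error 0.52), each within the spread of the control mice.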
